A study of Mus musculus with 27 samples.

Results

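The retinal pigment epithelium (RPE) genes described here serve the visual cycle and transport rather than melanin synthesis. The set holds 9 members: Lrat, Rpe65, Rdh5, Rlbp1 and Rgr for the visual cycle, and Ttr, Slc4a5, Best1 and Trpm3 for transport across or out of the epithelium. All 9 were found among the 55487 genes of the count table by matching Ensembl identifiers to mouse symbols, and 6 of them passed the filter on low counts (more than 10 counts in at least 3 libraries): Rdh5, Rlbp1, Ttr, Slc4a5, Best1 and Trpm3. Lrat and Rgr reached more than 10 counts in 1 and 2 libraries, and Rpe65 had 0 counts in all 27 libraries.

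The RPE is the pigmented monolayer behind the photoreceptors. It regenerates the light-sensing chromophore: LRAT esterifies retinol, RPE65 isomerises the ester to 11-cis-retinol, RDH5 oxidises it, and the carrier CRALBP, encoded by Rlbp1, binds the 11-cis retinoids. RGR is an opsin of the same tissue, transthyretin (Ttr) carries thyroid hormone and retinol-binding protein, Slc4a5 encodes a bicarbonate cotransporter, Best1 an anion channel and Trpm3 a cation channel. In development the RPE and the optic stalk (OS) both arise from the optic vesicle, and the enzymes of the cycle are known to appear later than the pigment genes.

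RNA was measured in mouse embryos of the C57Bl6/J background at embryonic day 14 (E14), in 4 control and 5 Smarcc1-DCT-cKO embryos. The mutants carried Baf155 loxP/loxP (Baf155 is the older name of Smarcc1, a subunit of the BAF chromatin remodelling complex), the Dct-Cre transgene and the Z/EG reporter, and the controls were littermates without Dct-Cre. Dct-Cre is driven by a pigment-cell promoter and recombines in the RPE, the OS and the ciliary margin, so other cells in a captured piece kept Smarcc1. Laser capture of transverse OS sections yielded 3 pieces per embryo (dorsal OS, ventral OS and the axons between them), giving 6 groups of 4 or 5 libraries. The labels place 1 control and 3 mutant embryos in batch A, and 3 control and 2 mutant embryos in batch B.

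Total counts ranged from 10.9 to 34.0 M per library (M, 1000000), and 1 read equalled 0.0294 to 0.0917 CPM (counts per M counts). A count of 0 allows up to 3 counts, or 0.0883 to 0.275 CPM, depending on the library. The reads carry no molecular identifiers, so these limits cover counting error only. Mean Smarcc1 was lower in the mutants in every region: 144.5 against 54.5 CPM (dorsal), 129.8 against 33.5 (ventral) and 124.2 against 18.3 (axons), with overlapping libraries in the dorsal piece. The pieces held several cell types, so fewer cells of a type and less RNA per cell cannot be told apart in any comparison below. Dorsal control 3 stood apart from the other dorsal controls, with 11399 CPM summed over 11 mesenchyme markers and 39.5 CPM over 6 other RPE markers (Otx2, Mitf, Pmel, Tyrp1, Dct and Tyr), which reached 1321 to 4889 CPM in the others. Values without that library are given for the main dorsal genotype results of the members, and for other control values where stated.

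The visual-cycle genes at both ends of the detection range, Rpe65 and Rlbp1, each hold an E-box match upstream of their start, and these windows are shown for that contrast. Rpe65 (ENSMUSG00000028174.12, chr3:159599175-159625321, plus strand) was at 0 throughout, whereas Rlbp1 (ENSMUSG00000039194.16, chr7:79374870-79387048, minus strand) was counted in 25 of 27 libraries. The windows shown are RefSeq sequence on GRCm38.p6 upstream of each start, at chr3:159598931-159599174 (plus) and chr7:79387049-79387277 (minus), cut back where an annotated exon begins. Capitals mark a match to the E-box CATGTG (on this strand, CACATG) or to the homeodomain core TAATCC (on this strand, GGATTA).
Rpe65: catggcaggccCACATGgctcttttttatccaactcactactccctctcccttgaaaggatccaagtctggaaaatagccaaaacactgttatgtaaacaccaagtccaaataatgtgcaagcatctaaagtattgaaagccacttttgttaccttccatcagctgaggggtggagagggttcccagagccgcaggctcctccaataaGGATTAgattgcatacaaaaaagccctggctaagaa
Rlbp1: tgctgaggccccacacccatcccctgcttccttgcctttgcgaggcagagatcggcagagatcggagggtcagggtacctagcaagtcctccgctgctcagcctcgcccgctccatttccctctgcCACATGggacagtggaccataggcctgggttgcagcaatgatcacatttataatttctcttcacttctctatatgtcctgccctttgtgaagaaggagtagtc
The E-box letters start at -239 in Rpe65 and -124 in Rlbp1, counted from the RefSeq start site, and the homeodomain letters at -42 in Rpe65. The search covered both strands of the 250 bases before each start, with CATGTG, a second E-box of the letters CACGTG, and TAATCC, and no matches overlapped one another. At least 1 of them was present in 4 of the 8 genes with a window used (Rpe65, Rlbp1, Rgr and Best1; none was used for Ttr) and in 22.9% of 32851 promoters of the same length. An annotated exon reaches the far end of the Best1 window, so its match may not be in intergenic sequence. CATGTG alone was present in 12.3% of all promoters and TAATCC in 6.25%. A match describes letters only. Within Trpm3 (ENSMUSG00000052387.16, chr19:22139046-22995410, plus strand) the annotation also places Mir204, the gene of a microRNA known from RPE and choroid plexus, whose mature sequence lies at chr19:22750610-22750631 on the same strand and is shown because its host is one of the 9 genes, with its seed in capitals.
mmu-miR-204-5p: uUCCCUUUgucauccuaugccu
Mir204 itself held 37 counts over all libraries, and no level is given for it.

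Across the 27 libraries Rlbp1 and Trpm3 were the most widely detected genes, and Ttr, Rdh5 and Slc4a5 were mostly limited to the dorsal piece. All 5 dorsal Smarcc1-DCT-cKO libraries had more Rlbp1, Ttr and Slc4a5 than each of the other 22 libraries. Of 16330 genes that passed the filter, 0.0919% showed that pattern. Slc4a5 exceeded 10 counts in those 5 libraries alone and so passed the filter only through them, and nothing is read from its place there. Rlbp1 and Ttr exceeded 10 counts in 20 and 7 of the other libraries. The lowest dorsal mutant lay at 379 CPM of Rlbp1 against a highest value of 318 CPM elsewhere, at 113 against 94.0 CPM of Ttr, and at 5.13 against 0.336 CPM of Slc4a5. In all 3 cases the highest of the other libraries was a dorsal control.

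**Figure D1:**
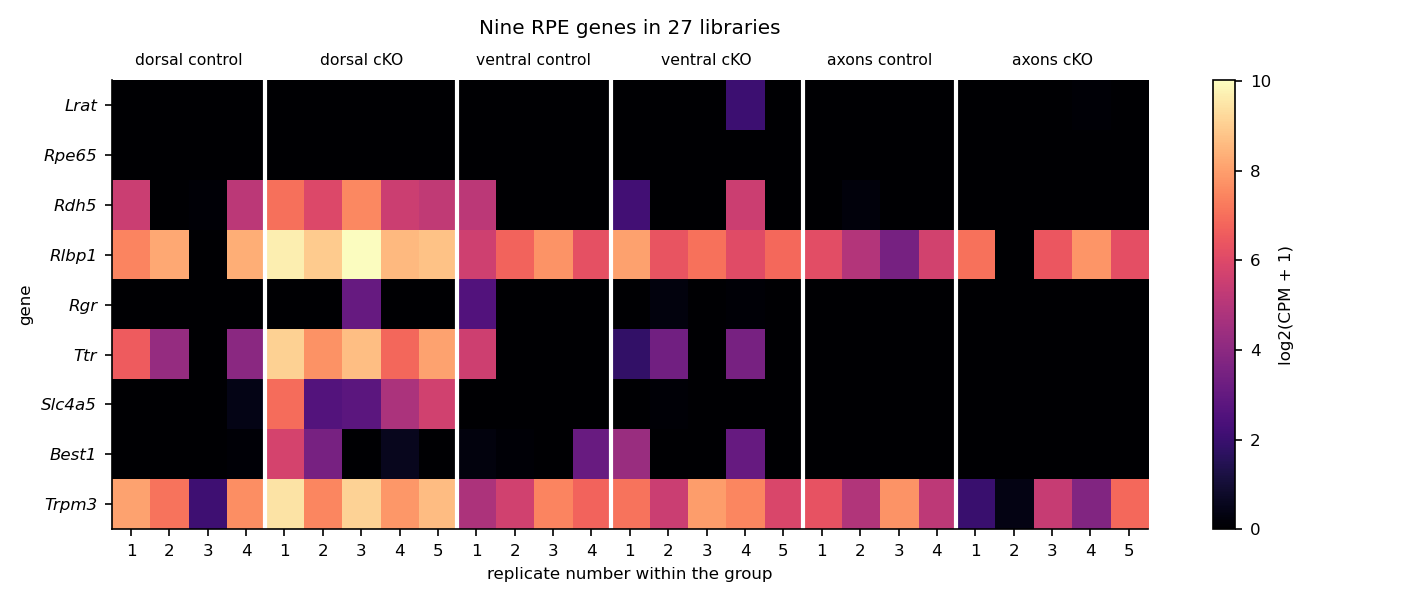
Level of the 9 genes (rows) as log2(CPM + 1) in the 27 libraries (columns, by region and genotype, cKO for Smarcc1-DCT-cKO). Rpe65 is at 0 in every library, Rlbp1 and Trpm3 are detected in most, and Slc4a5 exceeds 3 counts in 5 dorsal mutants and 1 dorsal control.

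Of the visual-cycle genes, Lrat (ENSMUSG00000028003.6, chr3:82892579-82903973) was seen in ventral mutant 4 at 3.21 CPM from 46 counts, and in axon mutant 4 from 1 count. It was at 0 in the 25 other libraries, the 9 dorsal ones included. Rpe65, the isomerase, had 0 counts in each library. Rgr (ENSMUSG00000021804.6, chr14:37034909-37048964) reached 7.42 CPM in dorsal mutant 3 and 4.85 CPM in ventral control 1, was at 3 and 1 counts in ventral mutants 2 and 4, and was at 0 elsewhere. None of these 3 genes passed the filter for edgeR, and the exact permutation p was 1 for Rgr in the dorsal piece and 1 for Lrat in the ventral piece.

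Rlbp1 in the dorsal piece measured 176, 291, 0 and 318 CPM in controls 1 to 4. In the dorsal Smarcc1-DCT-cKO it measured 833, 486, 1039, 379 and 425 CPM in mutants 1 to 5. All 5 mutants lay above all 4 controls, and the control at 0 was the library that stood apart. The means were 196 ± 145 CPM (SD, n = 4) and 632 ± 289 CPM (SD, n = 5), a ratio of 3.22. Without dorsal control 3 the control mean was 262 ± 75.3 CPM (SD, n = 3), still with no overlap. The edgeR quasi-likelihood test with batch as a term gave a log2 fold change of 1.45 ± 1.5 (SE) and an adjusted p of 1, and without dorsal control 3 a log2 fold change of 1.12 at an unadjusted p of 0.0211 and an adjusted p of 0.895.

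Single genes were also compared by exact permutation of log2(CPM + 1). For Rlbp1 the two-sided exact p was 0.00794 over all splits of the 9 dorsal libraries, the smallest they can give, and 0.025 over the 40 splits that keep the batches, again the smallest. Without dorsal control 3 the exact p was 0.0357 over 56 splits, whose smallest is 0.0179. Within batch A the 3 mutants (486 to 1039 CPM) lay above the 1 control (176 CPM), and within batch B the 2 mutants (379 and 425 CPM) lay above the 3 controls (0 to 318 CPM). The exact values come from 16 tests over the 3 regions and are not adjusted, and the genes were chosen with results of these data known.

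Rdh5 (ENSMUSG00000025350.15, chr10:128913593-128922888) shares 25.6% of its exonic bases with Bloc1s1 on the same strand, so part of its counts could not be assigned with certainty. It measured 44.6, 0, 0.059 and 34.7 CPM in dorsal controls 1 to 4. In dorsal mutants 1 to 5 it measured 130.5, 62.0, 184.9, 44.9 and 37.4 CPM. All 5 mutants carried the transcript while 2 of 4 controls did, and mutant 5 lay below control 1. The means were 19.9 ± 23.2 CPM (SD, n = 4) and 91.9 ± 63.7 CPM (SD, n = 5), and the control mean was 26.4 CPM without dorsal control 3. The exact permutation p was 0.0159 over all splits, 0.025 within batches and 0.0357 without dorsal control 3, and the edgeR adjusted p was 1.

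Among the transport genes, Ttr (ENSMUSG00000061808.4) measured 94.0, 18.1, 0 and 14.7 CPM in dorsal controls 1 to 4. In dorsal mutants 1 to 5 it measured 536.5, 209, 408, 113 and 269 CPM. The groups did not overlap, within batch A (94.0 against 209 to 537 CPM) or within batch B (0 to 18.1 against 113 and 269 CPM). The control mean was 31.7 ± 42.3 CPM (SD, n = 4) and the mutant mean 307 ± 167 CPM (SD, n = 5), a ratio of 9.69. Dorsal control 1 held most of the control level, and the ratio was 28.1 without it. Without dorsal control 3 the control mean was 42.3 ± 44.9 CPM (SD, n = 3) and the ratio 7.26. In edgeR the log2 fold change was 3.28 ± 1.10 (SE), at an unadjusted p of 0.0116 and an adjusted p of 0.918, and without dorsal control 3 these were 2.87, 0.000289 and 0.384. The exact permutation p was 0.00794, or 0.025 within batches and 0.0179 without dorsal control 3, in each case the smallest possible.

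Slc4a5 (ENSMUSG00000068323.12, chr6:83219828-83304945) was near absent outside the dorsal mutants. It was at 0 in dorsal controls 1 to 3 and at 0.336 CPM, from 5 counts, in control 4. In dorsal mutants 1 to 5 it measured 122.6, 5.13, 5.94, 25.9 and 49.6 CPM, from 84 or more counts each. The mutants differed among themselves more than for Ttr, with a mean of 41.8 ± 48.7 CPM (SD, n = 5), and all of them lay above the controls. edgeR gave a log2 fold change of 9.31 ± 2.62 (SE), an unadjusted p of 0.004 and an adjusted p of 0.873. These values describe Slc4a5 and do not test its separation, since it passed the filter only through the dorsal mutants.

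Best1 (ENSMUSG00000037418.6, chr19:9985174-10001633) had 1 count in the 4 dorsal controls. In dorsal mutants 1 to 5 it measured 53.9, 10.4, 0, 0.483 and 0 CPM, so that mutants 1 and 2 carried nearly all of it. The groups overlapped, with an exact permutation p of 0.286. Trpm3 measured 272, 138, 3.25 and 201 CPM in dorsal controls 1 to 4 and 706, 179, 555, 228 and 396 CPM in dorsal mutants 1 to 5. Of those mutants, 3 lay above the highest control. The exact permutation p was 0.0556, or 0.179 without dorsal control 3, and the edgeR adjusted p was 0.953. Trpm3 shares 2.57% of its exonic bases with genes on the opposite strand.

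In the edgeR fit of the dorsal genotypes, 0 of the 6 tested members and 0.0124% of 16145 genes passed an adjusted p of 0.05 with an absolute log2 fold change over 0.58. At an unadjusted p under 0.05 there were 2 members (Ttr and Slc4a5) and 5.35% of all genes. CPM were higher without overlap in 1.31% of all genes, and in Rlbp1, Ttr and Slc4a5 among the members. Slc4a5 passed the filter only through the mutants, so it is not read against these shares. The median log2 fold change was 1.73 over the 5 other tested members and -0.04 over all genes tested. By DESeq2, 0 members were called among those with an adjusted p, and 532 of 16145 genes.

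**Figure D2:**
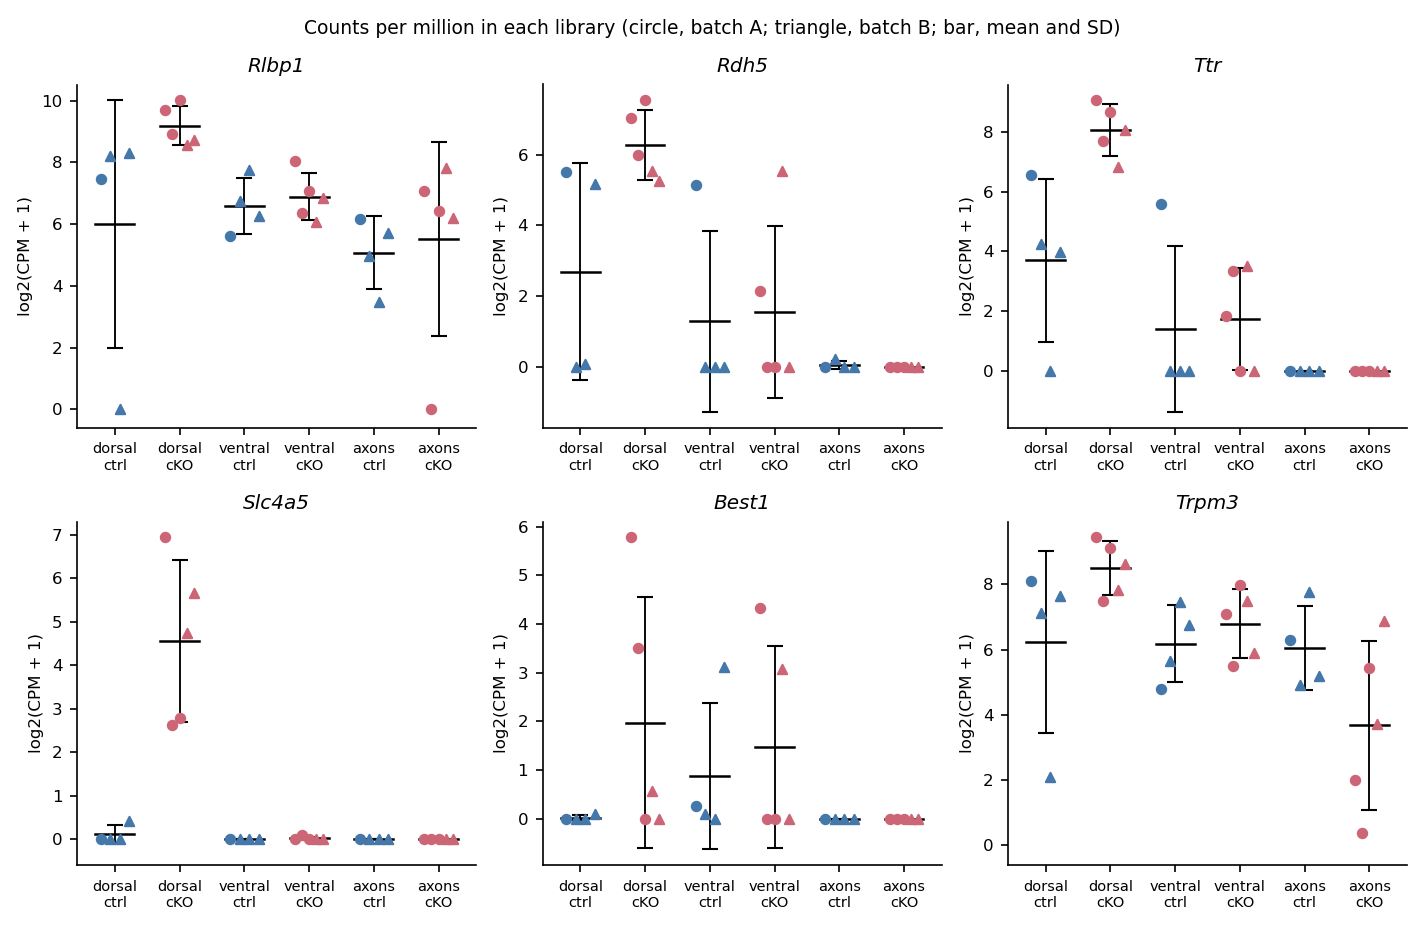
Each panel shows one gene as log2(CPM + 1) in every library (control blue, Smarcc1-DCT-cKO red; circles batch A, triangles batch B), with the group mean and SD as bars. In the dorsal piece all mutants lie above all controls for Rlbp1, Ttr and Slc4a5, and in the ventral piece and the axons no gene separates the genotypes.

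Markers of other cells moved with the dorsal groups. The 11 mesenchyme markers were all lower in the mutants, 7 of them at an unadjusted p under 0.05 and 0 after adjustment, and their sum ran from 1162 to 11399 CPM in dorsal controls (to 3602 CPM without control 3) and from 55.6 to 395 CPM in dorsal mutants. The 7 astrocyte progenitor markers tested and the 8 endothelial markers were likewise lower, with 0 called. Summed astrocyte progenitor markers ran from 2234 to 3086 CPM in dorsal controls and from 762 to 1565 CPM in dorsal mutants, with Aldh1l1 and Gfap at 0 in both. Endothelial sums ran from 239.6 to 452 CPM and from 43.2 to 420.5 CPM. The 6 other RPE markers summed to 39.5 to 4889 CPM in dorsal controls (from 1321 CPM without control 3) and to 3140 to 12031 CPM in dorsal mutants, so they moved the same way as Rlbp1 and Ttr. The part of these cell types in the differences of Rlbp1, Rdh5, Ttr and Slc4a5 was not tested.

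Ttr, Slc4a5 and Trpm3 are also known from the choroid plexus, the secretory epithelium of the brain ventricles. The 10 other choroid plexus markers found summed to 89.7 to 303 CPM in dorsal controls and to 73.4 to 339 CPM in dorsal mutants. Without control 3 the control sums began at 219 CPM, with mutant 3 above all of them and the other mutants below. The part of choroid plexus cells in the Ttr and Slc4a5 values was not tested. Of the 8 tested markers, Ttr included, 2 were higher and 6 lower in the dorsal mutants, with a median log2 fold change of -1.07 and 0 called. Mean Folr1 was 47.8 CPM in dorsal controls and 49.1 CPM in dorsal mutants, and mean Sostdc1 was 124 and 73.1 CPM. Kcne2, a potassium channel subunit of that tissue, was at 0 in the dorsal controls and had counts in 2 libraries in all, with a dorsal mutant mean of 16.5 CPM. Prlr was at 0 in the dorsal mutants. These genes were chosen for naming after their values were seen.

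**Figure D3:**
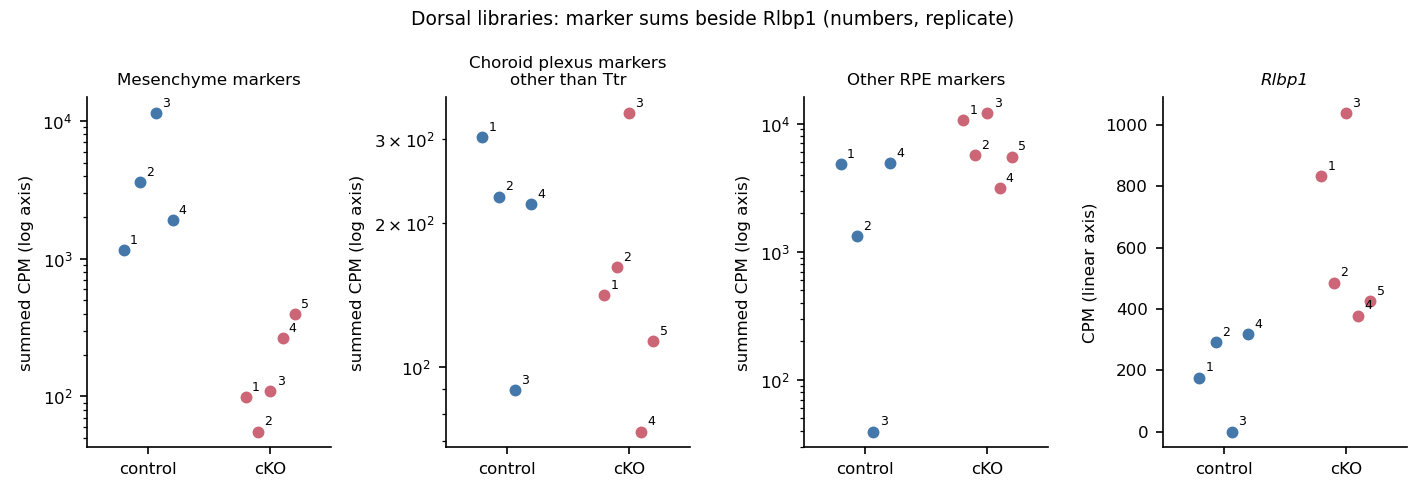
Summed CPM of mesenchyme, choroid plexus (without Ttr) and other RPE markers (log axes), and CPM of Rlbp1 (linear axis), in the 9 dorsal libraries, numbered by replicate. Control 3 has the highest mesenchyme sum (11399 CPM), the lowest RPE sum (39.5 CPM) and no Rlbp1, while choroid plexus sums overlap between genotypes.

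In the ventral piece, Rlbp1 measured 48.1, 107, 216 and 75.1 CPM in controls 1 to 4 and 264, 80.6, 133, 66.5 and 115 CPM in mutants 1 to 5. The groups overlapped, with means of 112 ± 73.8 CPM (SD, n = 4) and 132 ± 78.5 CPM (SD, n = 5). Trpm3 measured 26.9, 49.7, 177 and 108 CPM in the controls and 136, 44.4, 250.2, 179.6 and 58.9 CPM in the mutants, also with overlap. Ttr was at 47.0 CPM in ventral control 1 and at 0 in the 3 other controls, and measured 2.56, 9.16, 0, 10.2 and 0 CPM in the mutants. Rdh5 was at 34.1 CPM in ventral control 1 and at 0 in the others, and measured 3.46, 0, 0, 45.7 and 0 CPM in the mutants.

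Best1 measured 0.204, 0.0763, 0 and 7.70 CPM in the ventral controls and 19.2, 0, 0, 7.39 and 0 CPM in the ventral mutants. Slc4a5 was at 0 in the ventral controls and had 1 count in the ventral mutants. The rarer genes came from a few ventral libraries of both genotypes. Control 1 held Rdh5, Rgr and Ttr together, mutant 1 held Rdh5, Best1 and Ttr, and mutant 4 held Lrat, Rdh5, Best1 and Ttr. Ttr was also counted in mutant 2, and Best1 in control 4. edgeR called 0 of 6 members and 0% of 16139 genes in the ventral piece, with unadjusted p from 0.331 to 0.809 for the members and 515 genes under 0.05 in all. Exact permutation p over the ventral splits ranged from 0.421 to 1.

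In the axons, Rlbp1 measured 70.0, 30.1, 10.1 and 51.5 CPM in controls 1 to 4 and 134.6, 0, 85.4, 224 and 71.9 CPM in mutants 1 to 5. Here 4 of 5 mutants lay above the highest control and mutant 2 was at 0, with an exact permutation p of 0.849. Trpm3 measured 78.4, 29.3, 215.5 and 35.4 CPM in the controls and 2.98, 0.298, 42.0, 12.2 and 115.8 CPM in the mutants. Its mean was 89.7 ± 86.7 CPM (SD, n = 4) and 34.6 ± 48.3 CPM (SD, n = 5), and the exact permutation p was 0.151. Ttr, Slc4a5, Best1 and Rgr were at 0 in all 9 axon libraries, which allows up to 3 counts in each, and Rdh5 had 3 counts in 1 control.

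edgeR called 0 of 3 tested members in the axons and 0% of 14977 genes, with 531 genes at an unadjusted p under 0.05. The difference of the genotype effect between the dorsal and ventral pieces was fitted over all 27 libraries with batch as a term. It called 0 of 6 members and 0.00612% of 16330 genes, and the members' unadjusted p ran from 0.119 to 0.96. With the embryo as a random block (limma voom), the call for Slc4a5 changed: its log2 difference was 8.56 ± 1.23 (SE) at an adjusted p of 0.000987, and 1 of 6 members and 11 genes were called. Slc4a5 passed the filter only through the dorsal mutants. It was at or near 0 in the other groups of this difference, so its fitted value is no measured size. The edgeR fit of the same difference had an SE of 119.71 for it.

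Regions were next compared within a genotype. These comparisons use the same libraries as those above and as each other. The main region fits treat the pieces of an embryo as independent and hold no batch term. In the controls, dorsal against ventral, 0 of 6 members and 0% of 16118 genes were called, with all members overlapping. Dorsal against axons, 0 of 6 members and 0.0692% of genes were called (11 genes, and 0 without dorsal control 3). Ttr was at least 196-fold higher by mean in the dorsal controls than the detection floor of the axon controls (3 counts per library, averaged), at an unadjusted p of 0.00794 and an edgeR adjusted p of 0.386. That bound was 67.6-fold without dorsal control 1 and 261-fold without dorsal control 3, where the adjusted p was 0.471. Rdh5 had an unadjusted p of 0.0328 and the same adjusted p. Ventral against axons, 0 of 5 members and 0.0316% of genes were called, with Ttr at least 72.7-fold and Best1 at least 12.3-fold over that floor, each with an edgeR adjusted p of 0.453. Each rested on 1 library: Ttr was at 0 without ventral control 1, and Best1 fell below the floor without ventral control 4.

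Among the Smarcc1-DCT-cKO libraries, dorsal levels exceeded axon levels without overlap for 5 of the 6 tested members, as they did for 3.12% of 15780 genes. Slc4a5 is among the 5 and passed the filter only through the dorsal mutants. Of the 6, 2 passed the test, against 0.545% of all genes. Ttr was at least 1891-fold higher in the dorsal piece than the axon floor (edgeR adjusted p = 1.45e-05). It passed in all 14 alternative fits, where the adjusted p was at most 0.0231. Rdh5 was at least 566-fold higher (edgeR adjusted p = 0.00751), but its adjusted p was 0.394 with the replicate number as a block and 0.0675 without dorsal mutant 3. Slc4a5 was at least 258-fold higher, or 133-fold without dorsal mutant 1, with an adjusted p of 0.0835.

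Rlbp1 was 6.13-fold higher by mean in the dorsal mutants than in the axon mutants, with a log2 fold change of 2.46 ± 1.23 (SE) and an edgeR adjusted p of 0.285. Without axon mutant 2, the library at 0, that adjusted p was 0.0227. Trpm3 was 11.9-fold higher by mean, or 28.7-fold without axon mutant 5, with a log2 fold change of 3.35 ± 1.05 (SE) and an adjusted p of 0.182. Best1 was at least 79.8-fold above the floor by mean, with an adjusted p of 0.182. Dorsal mutant 1 carried most of that mean, the bound was 16.7-fold without it, and 2 of 5 dorsal libraries were at 0.

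Dorsal against ventral in the mutants, 0 of 6 members and 0% of 16168 genes were called, and 2007 genes had an unadjusted p under 0.05, 4 of the 6 members among them (12.4% of all genes). Levels were higher without overlap for 0.606% of genes, and for Rlbp1, Ttr and Slc4a5 among the members, the last having passed the filter only through the dorsal mutants. Rlbp1 was 4.80-fold higher by mean in the dorsal piece, with a log2 fold change of 2.26 ± 0.40 (SE). Its edgeR adjusted p was 0.0625, and 0.0352 with the replicate number as a block. Slc4a5 also had an adjusted p of 0.0625. Ttr was 69.9-fold higher by mean (log2 fold change 6.17 ± 1.30 SE), with an edgeR adjusted p of 0.173. Trpm3 had a log2 fold change of 1.63 ± 0.48 (SE) and an adjusted p of 0.381. By DESeq2, 3 members (Rlbp1, Ttr and Slc4a5) and 460 of 16168 genes were called in this comparison.

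Ventral against axons in the mutants, 0 of 6 members and 0.443% of 15804 genes were called. Rdh5 was at least 60.5-fold, Best1 at least 32.7-fold and Ttr at least 27.1-fold over the axon floor by mean, each with an edgeR adjusted p of 0.214 and each from 2 or 3 of 5 ventral libraries. The bound was 5.32-fold for Rdh5 without ventral mutant 4 and 11.4-fold for Best1 without ventral mutant 1. Rlbp1 and Trpm3 overlapped between these pieces.

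Ordered by mean, Rlbp1 ran from dorsal mutants (632 CPM) through dorsal controls (196), ventral mutants (132), ventral controls (112) and axon mutants (103) to axon controls (40.4). Only the first step was free of overlap, and the ranges of all later neighbours overlapped. Ttr ran from dorsal mutants (307 CPM) to dorsal controls (31.7), ventral controls (11.8), ventral mutants (4.39) and the axons (0), again with overlap beyond the first step. Rdh5 ran from dorsal mutants (91.9 CPM) to dorsal controls (19.9), ventral mutants (9.82), ventral controls (8.54) and axon controls (0.0409), and all of these neighbours overlapped.

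Levels of different genes can be set beside one another only per length. Per kilobase of annotated exon, the mean level in dorsal mutants was 259 ± 141 CPM per kb (SD, n = 5) for Ttr and 214 ± 97.9 for Rlbp1, which did not differ beyond their spread. Rdh5 followed at 32.7 ± 22.7 CPM per kb, then Trpm3 at 16.9 ± 9.05, Slc4a5 at 7.20 ± 8.38 and Best1 at 5.03 ± 9.05. Trpm3 is counted over 24437 exonic bases of many isoforms, so its value per kilobase is a low estimate. In dorsal controls the order was Rlbp1 (66.5 ± 49.0 CPM per kb, SD, n = 4), Ttr (26.7 ± 35.7), Rdh5 (7.07 ± 8.27) and Trpm3 (6.29 ± 4.68), with all neighbours overlapping.

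The genes were also set beside one another by the libraries that held them. All 12 libraries with more than 10 counts of Ttr also had more than 10 counts of Rlbp1 and of Trpm3. Those 2 genes exceeded 10 counts in 25 and 26 of the 27 libraries, so nothing is read from that sharing. All 10 libraries with more than 10 counts of Rdh5 also had more than 10 of Ttr. Slc4a5 exceeded 10 counts only in the 5 dorsal mutants, and all of these held Rdh5 and Ttr. Best1 exceeded 10 counts in 5 libraries and shared 2 of them with Slc4a5. Over the 27 libraries, log2(CPM + 1) of Rdh5 and Ttr had a Pearson r of 0.92, and Rlbp1 and Trpm3 of 0.72, as a description over libraries that share embryos and differ in depth.

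By the same measure, the closest genes were sought for the 4 members with more than 10 counts in 9 or more libraries. The members themselves, mitochondrial genes and genes without an established name were left out. They were Tyr (r = 0.91), Rab27a (0.87) and Slc6a15 (0.81) for Rdh5, and Tyr (0.89), Col8a1 (0.88) and Mab21l1 (0.88) for Ttr. For Rlbp1 they were Ociad2 (0.94), S100a1 (0.91) and Rai14 (0.86), and for Trpm3 Usp25 (0.82), Shroom2 (0.81) and Crls1 (0.79). By Pearson r, Tyr, the rate-limiting enzyme of melanin synthesis, was the nearest of these genes to both Rdh5 and Ttr, each of which lay nearer to the other. That order did not hold by Spearman rho, which was 0.84 for Rdh5 with Ttr, 0.87 for Rdh5 with Tyr and 0.94 for Ttr with Mab21l1.

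Other genes of retinoid handling did not share a direction in the dorsal piece. Of 16 listed, 15 were in the table and 10 were tested, of which 4 were higher and 6 lower in the mutants, with a median log2 fold change of -0.42 and 0 called. Among the most abundant were Rdh10, which makes retinaldehyde (264 ± 124 CPM in dorsal controls and 233 ± 57.8 CPM in dorsal mutants), Stra6, a receptor of retinol-binding protein (147 ± 98.0 and 155 ± 154.5 CPM), and Dhrs3, which reduces retinaldehyde (138 ± 57.3 and 3.17 ± 5.82 CPM), all SD with n = 4 and 5. Without dorsal control 3 the control means were 321 CPM of Rdh10, 183 CPM of Stra6 and 134 CPM of Dhrs3. The Stra6 control mean then lay above the mutant mean. Dhrs3 had no overlap, at an unadjusted p of 0.00476 and an edgeR adjusted p of 0.904. Rdh12, singled out after its values were seen, was at 0 in the dorsal controls and averaged 10.7 ± 19.4 CPM (SD, n = 5) in the dorsal mutants.

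Other RPE genes of transport, adhesion and secretion were also divided. Of 25 tested out of 30, 12 were higher and 13 lower in the dorsal mutants, with a median log2 fold change of -0.18 and 0 called. By abundance, Bsg, a partner of lactate carriers, measured 804 ± 307 and 809.9 ± 214 CPM in dorsal controls and mutants, Car14, a carbonic anhydrase, 289.6 ± 218 and 547 ± 338 CPM, Ezr, a linker of microvilli, 189 ± 172 and 242 ± 64.4 CPM, and the keratin Krt18 71.2 ± 86.0 and 417 ± 238 CPM. Without dorsal control 3 the control means were 914 CPM of Bsg, 377 CPM of Car14, 252 CPM of Ezr and 80.9 CPM of Krt18. The Bsg and Ezr control means then lay above the mutant means. Krt18 had the lowest p of the list, with a log2 fold change of 2.22 ± 0.44 (SE) and an edgeR adjusted p of 0.261.

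Of the same list, 5 further genes had an unadjusted p under 0.05 in the dorsal piece and are named after their values were seen. Serpinf1 (137 and 1.39 CPM), Enpp2 (79.4 and 0.608 CPM), Slc26a7 (65.5 and 0.769 CPM) and Itgb5 (52.4 and 5.84 CPM) had lower means in the mutants than in the controls. Kcnj13, a potassium channel of the RPE, was at 0 in the controls and averaged 3.6 CPM in the mutants. Serpinf1 was highest in dorsal control 3, and its control mean without that library was 53.8 CPM. Serpinf1 and Enpp2 are also known from mesenchyme, whose markers were lower in the same libraries.

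Of the 11 pigmented lineage genes and RPE-fate factors, 9 were higher and 2 lower in the dorsal mutants, with a median log2 fold change of 2.07 and 0 called. Pmel averaged 2440 ± 2173 and 5371 ± 2794 CPM, Dct 127 ± 139 and 637 ± 402 CPM, Tyr 41.5 ± 57.7 and 685 ± 187 CPM, and Sox9 257 ± 21.8 and 143 ± 39.2 CPM in dorsal controls and mutants. Without dorsal control 3 the control means were 3241 CPM of Pmel, 169 CPM of Dct, 55.3 CPM of Tyr and 264 CPM of Sox9. Pax6 and Gpr143, named after their values were seen, differed by 2.27 ± 0.38 and 12.70 ± 2.53 (log2 fold change ± SE), and their edgeR adjusted p were 0.104 and 0.452. Gpr143 was at 0 in all dorsal controls, so its fitted change is no measured size.

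**Figure D4:**
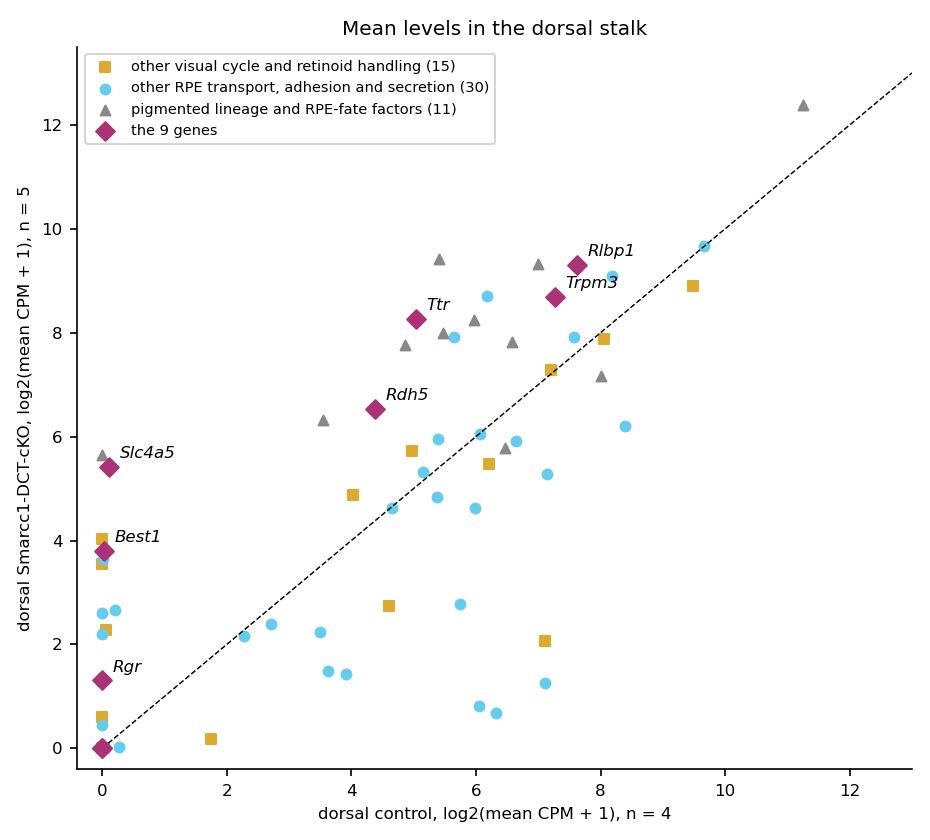
Mean level in dorsal controls (horizontal) and dorsal Smarcc1-DCT-cKO (vertical) as log2(mean CPM + 1), for the 9 genes (diamonds) and the genes of 3 lists. Rlbp1, Ttr, Rdh5, Slc4a5, Best1, Trpm3 and Rgr lie above the dashed line of equal means, and the other retinoid (squares) and transport (circles) genes fall on both sides of it.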

How the data were processed

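Laser-captured OS pieces of E14 embryos were sequenced with a Geo-seq protocol that amplifies cDNA by PCR. The deposited table holds unscaled counts, which the authors obtained by aligning reads to mm10. The submitters' processing notes name STAR, HTSeq and Salmon. Versions, annotation release and strand setting are not given in the sources used here. Symbols and exons came from GENCODE M21 on mm10, which matched 55227 of 55487 identifiers. The 260 others held 0.00287% of the counts. CPM were counts over the library total. Genes above 10 counts in 3 or more libraries were tested with edgeR 4.0.16 (R 4.3.3; quasi-likelihood F-test, TMM, two-sided, Benjamini-Hochberg over all genes tested). Genotype fits held batch as a term. Single genes were also compared by exact permutation.

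Alternatives were DESeq2 1.42.0, RLE scaling, no count filter, no batch term, batch B alone, the replicate number as a block, a random block by limma 3.58.1, and each library left out. Batch A alone and the exact test without dorsal control 3 were added after seeing the data. A member's fold change was printed where its unadjusted p was under 0.05 or its groups did not overlap, and up to 4 genes of each other list by mean CPM. Of these, 1 is not reported here. Members and lists were chosen with earlier results of these data known. On simulated counts with known, large changes, edgeR gave the right direction for most changed genes but called a minority of them. DESeq2 called more of them along with many unchanged genes. A gene that edgeR did not call may therefore still differ. No 2 libraries held identical counts. Nothing beyond the labels shows that libraries of a group came from separate litters, so p-values measure the spread between these libraries. Promoter and microRNA sequences came from RefSeq (GRCm38.p6). No protein sequence was used here.

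Replicate numbers within a genotype were read as embryos, since each embryo gave 3 pieces. In genotype fits the replicate block joined control and mutant embryos of the same number, which are different embryos, in place of the batch term. Deviations from group means correlated between pieces of the same number at -0.02 to 0.11. Of the marker lists, melanoblast markers (5 tested) were 2 higher and 3 lower in dorsal mutants, photoreceptor precursor markers (5) 4 and 1, retinal progenitor markers (7) 6 and 1, retinal ganglion cell markers (8) 4 and 4 and erythroid markers (8) 1 and 7, with 0 called. The 9 tested RPE markers, which include the members Rdh5, Rlbp1 and Best1, were all higher, with 0 called.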

Additional observations from a re-analysis of the deposited data

Results flagged for a closer look

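Single libraries that lay far from the rest of their group were looked for in 28 groups of a gene, and 10 were found. In 6 of the 10 all other libraries of the group were at 0, where any single library with counts stands out by construction. For the other groups chance gives about 1 in 20. Dorsal control 3 was one of them for 2 genes: Rlbp1 at 0 CPM against 176 to 318 CPM in the other controls, and Trpm3 at 3.25 CPM against 138 to 272 CPM. In that library the 11 mesenchyme markers summed to 11399 CPM.

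Ventral control 1 stood out for Rdh5 at 34.1 CPM, Ttr at 47.0 CPM and Rgr at 4.85 CPM, each at 0 in the other ventral controls. Dorsal control 1 held Rdh5 and Ttr as well. The other 5 were Rlbp1 in axon mutant 2 at 0 CPM against 71.9 to 224 CPM, Rgr in dorsal mutant 3 at 7.42 CPM, Lrat in ventral mutant 4 at 3.21 CPM, Best1 in ventral control 4 at 7.70 CPM and Slc4a5 in dorsal control 4 at 0.336 CPM, which rests on 5 counts. No cause was tested for any of them.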

How the results depend on the processing

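Direction was followed only for members with an unadjusted p under 0.05 or no overlap, and none of these changed direction under an alternative. Elsewhere some ratios of means did change direction when 1 library was left out. For ventral Rlbp1, mutant over control, the ratio was 1.18, and 0.885 without ventral mutant 1. Of the fits of single genes with an adjusted p, 254 kept their side of the threshold, 17 passed it newly and 2 no longer passed it, and 4 more gave no adjusted p. Exact permutation, judged on its unadjusted p, differed from the edgeR call for Rlbp1, Rdh5 and Ttr in the dorsal piece. It also differed for Slc4a5, which passed the filter only through the dorsal mutants, so nothing is read from that exact p. The members called depended on the tool and the filter. With no count filter, 2 members were called between dorsal genotypes, among 101 of 26264 genes. They were Rlbp1 (edgeR adjusted p of 0.0402) and Ttr (2.81e-06). Between dorsal and ventral mutants 2 were called (Rlbp1 and Slc4a5), among 23 of 26572 genes. DESeq2 called 2 members between dorsal and axon controls (563 of 15899 genes) and 3 between dorsal and ventral mutants (460 of 16168). It called 5 between dorsal and axon mutants (1586 of 15780) and 2 between ventral and axon mutants (1352 of 15804). Slc4a5, which passed the filter only through the dorsal mutants, is among the 3 and the 5. The random block called 1 member (Slc4a5) in the difference of genotype effects. With the replicate number as a block, 1 member was called between dorsal and ventral mutants and 1 between dorsal and axon mutants. With each library left out, these counts ran from 0 to 1 and from 1 to 3.

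Counts over all genes moved further. DESeq2 called 532 genes between dorsal genotypes, 342 ventral, 1238 in axons, 243, 563 and 424 for controls (dorsal against ventral, dorsal against axons, ventral against axons), 460, 1586 and 1352 for mutants in that order, and 590 for the difference of genotype effects. With no filter the counts were 101, 8 and 10 for genotypes, 11, 33 and 18 for controls, 23 for dorsal against ventral mutants and 15 for the difference. Between dorsal genotypes there were 8 without the batch term, 0 in batch B alone, 0 in batch A alone and 0 with the block. RLE scaling gave 2 for ventral against axon controls. Between genotypes the block joins different embryos that share a number. Between regions it gave 2 and 0 for controls against axons and 6, 42 and 41 for mutants. The random block gave 11 for the difference. With each library left out the ranges were 0 to 2 (dorsal genotypes), 0 to 1, 0 to 10 and 2 to 4 (controls), 0 to 8, 59 to 94 and 42 to 70 (mutants) and 1 to 2 (difference). The causes were not tested. At these totals, a gene at 0 in a library may lie at up to 0.275 CPM.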

Other observations

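The differences between dorsal genotypes can be set against the other RPE markers of the same library (Otx2, Mitf, Pmel, Tyrp1, Dct and Tyr, summed CPM), a measure chosen after the data were seen and given with no test. Ttr amounted to 1.94%, 1.37%, 0% and 0.3% of that sum in dorsal controls 1 to 4, and to 5.07%, 3.68%, 3.39%, 3.6% and 4.88% in dorsal mutants 1 to 5. All mutants lay above all controls for Ttr on this scale too. Pmel held most of the sum by mean (2440 CPM in dorsal controls and 5371 CPM in dorsal mutants), so the scale largely follows Pmel. No scale by Tyr alone was taken. Its means were 41.5 and 685 CPM, beside 31.7 and 307 CPM of Ttr. Rlbp1, Rdh5 and Trpm3 overlapped: Rlbp1 amounted to 3.63%, 22.1%, 0% and 6.5% in the controls and to 7.70% to 12.1% in the mutants, Rdh5 to 0% to 0.92% and 0.678% to 1.54%, and Trpm3 to 4.11% to 10.5% and 3.15% to 7.27%. Slc4a5 was at or near 0 in the controls, so dividing its values adds nothing to them. The RPE marker sum is itself higher in most dorsal mutants, and these shares use the same libraries as the CPM values.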
